A study of Mus musculus with 24 samples.

Results

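The mitochondrial carriers of the Slc25 family were read in the liver of male C57Bl6J mice on Agilent expression arrays, 1 mouse per array. Members were the probes whose gene name on the array begins with Slc25a, with Slc25a1 left out. There were 102 such probes for 46 genes among the 56605 probes of the array, and 82 of them, for 42 genes, had values among the 32176 probes of the deposited table. Of the other 4 genes, Slc25a31, Slc25a41 and Slc25a54 were well above background on at most 2 of 24 arrays, and Slc25a18 on at most 6. All mice were of the third generation of a breeding scheme with dietary oil and were killed during fasting. The reference group (9 mice) came from the lineage given high-oleic sunflower oil and ate a low-fat diet. The HFoleic group (8 mice) came from the same lineage and ate an obesogenic diet rich in fat and sucrose. The HFepa group (7 mice) ate that obesogenic diet and came from the lineage given fish oil rich in eicosapentaenoic acid (EPA). HFepa mice therefore differed from reference mice in diet and lineage at once, and the 2 cannot be told apart, because these arrays held no EPA-lineage mice on the low-fat diet. Both comparisons with the reference share the same 9 reference mice.

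Most carriers of this family sit in the inner mitochondrial membrane and exchange or co-transport nucleotides, phosphate, amino acids, keto acids, acylcarnitines, cofactors and metal ions between cytosol and matrix. Among the members measured here, Slc25a17 is a peroxisomal carrier and Slc25a46 a protein of the outer mitochondrial membrane. In hepatocytes they join the cytosolic and mitochondrial sides of pathways such as the urea cycle, gluconeogenesis, the malate-aspartate shuttle and fatty acid oxidation. The inner membrane carriers are made in the cytosol and threaded into the inner membrane through the TOM complex, the small Tim chaperones and the TIM22 complex.

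Signal is given as the deposited log2 median signal, quantile normalized by the authors, and a difference is a difference of group means on that log2 scale. Each gene was read from its brightest probe, the one with the highest mean over all arrays, and levels of different probes are not compared. A probe is said to have risen, fallen or been called where limma gave a Benjamini-Hochberg adjusted p under 0.05 over all 32176 probes. Each 95% interval is that of a single probe and is not adjusted for the number of probes. Between 28804 and 34432 probes per array were well above background, and pairs of arrays of 1 group correlated at 0.974 to 0.995. All 8 hepatocyte markers checked were well above background on every array, and 2 of them (Cps1 and Tat) were lower in HFoleic. Of the markers of other cells, Lrat (1 of 5 for stellate cells) was higher in HFoleic, by 0.56, and Sox9 (1 of 4 for bile duct) was lower, by a difference of -0.65, and none was called in HFepa. Their part in the results below was not tested. Single arrays stood apart. Reference replicate 5 had a mean correlation of 0.977 with the other reference mice, against 0.986 to 0.990 for the rest, and it held the highest or lowest reference value for 22 of 42 members (3 to 19 for the others). Its summed signal of 5 stellate cell markers was 5082 (next reference mouse 2971) and that of 4 bile duct markers 1115 (next 518), on the linear scale. The highest array also stood far above the next of its group for striated muscle markers in reference replicate 3 (1414, next 272), exocrine pancreas markers in HFepa replicate 7 (1554, next 296) and adipocyte markers in HFoleic replicate 4 (6980, next 2530). The part of other cells in the values of these mice was not tested. In bulk liver RNA, fewer cells of a type and less RNA per cell cannot be told apart.

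Under the obesogenic diet in the oleic lineage, 9 of 42 carriers were called, 7 lower and 2 higher than in the reference. The 7 that fell were Slc25a22, Slc25a12, Slc25a47, Slc25a25, Slc25a51, Slc25a34 and Slc25a28, and Slc25a37 was among the 2 that rose. Counted by gene, 21.4% of the members were called, beside 7.38% of all 21559 gene names, 16.7% of the members fell, beside 3.26% of all, and 4.76% rose, beside 4.12% of all. Counted by probe, 16 of 82 member probes were called (14 lower, 2 higher), or 19.5%, beside 6.59% of all probes (2.90% lower and 3.69% higher). At an unadjusted p under 0.05 there were 33 of 82 member probes, beside 6430 of all 32176 probes (20.0%). The median difference over the 42 members was -0.06, and over all gene names -0.01, and the median size of the difference, whatever its sign, was 0.185 against 0.0965. By role, called members were spread over 6 of the 9 groups. Without reference replicate 5 there were 14 called member probes, 12 of them lower, and 2087 of all probes, against 2122 with it.

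In HFepa against the reference only Slc25a25 and Slc25a22 were called among the 42 members, both lower, or 4.76% beside 0.334% of all gene names. These were 5 of 82 member probes, or 6.10%, beside 0.342% of all probes. An unadjusted p under 0.05 was found for 25 of 82 member probes, beside 4149 of all 32176 probes (12.9%). The median over the 42 members was -0.06, and over all gene names 0.00. The count of calls in HFepa depended on single mice and on the fit, and it did so over all probes, of which 110 were called. By the methods' t-test and with only the 2 groups compared in the fit, 0 member probes and 0 of all probes were called. The authors reported differentially expressed genes for this comparison, so the t-test as run here did not reproduce their calls. Without reference replicate 1 or 2 or HFepa replicate 1, 2, 6 or 7, 0 member probes were called, and 7, 0, 3, 0, 0 and 3 of all probes. Without reference replicate 4 there were 1 and 22, without HFepa replicate 4 there were 3 and 60, and without reference replicate 5 there were 4 and 65. Without reference replicate 8 there were 9 member probes and 467 of all probes. Between HFepa and HFoleic limma called 0 member probes and 0 of all probes (0%). At an unadjusted p under 0.05 there were 8 of 82 member probes and 2969 of all 32176 probes (9.23%). Counted by gene, these were 4 of 42 members and 2043 of 21559 gene names. The smallest adjusted p of a member was 0.300, and the methods' t-test called 0 as well. No carrier was therefore shown to respond differently in the 2 obesogenic groups, and calls in HFoleic that were missed in HFepa are not evidence of such a difference.

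**Figure D1:**
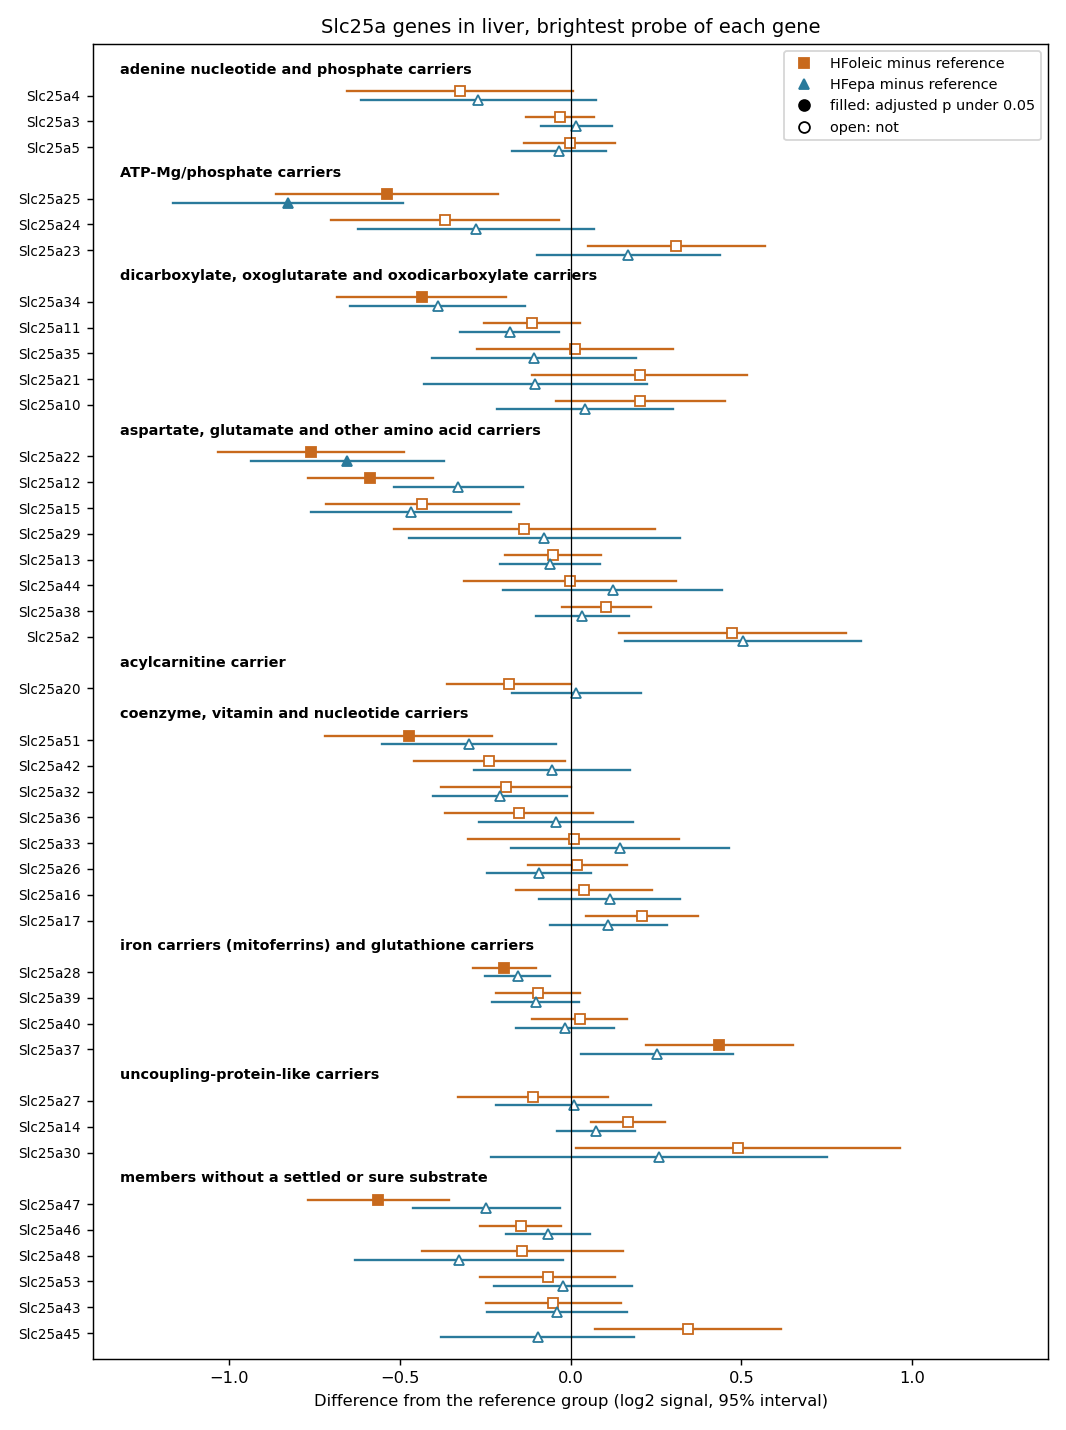
Difference from the reference group in log2 signal (x axis) of the brightest probe of 41 Slc25a genes, grouped by role, for HFoleic (orange squares) and HFepa (blue triangles). Lines are 95% intervals and filled symbols have a limma adjusted p under 0.05: 8 of these genes in HFoleic and 2 in HFepa.

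Amino acid carriers held the 2 lowest adjusted p-values among the brightest probes of the falling members. Slc25a12 (aralar) exchanges mitochondrial aspartate for cytosolic glutamate in the malate-aspartate shuttle. Its log2 signal ran from 9.71 to 10.53 in reference mice (median 10.12), from 9.36 to 9.64 in HFoleic (median 9.49) and from 9.56 to 9.89 in HFepa (median 9.76). Every HFoleic mouse thus lay below every reference mouse, while HFepa mice lay between on this probe and overlapped both. It was the 1 member of 42 whose HFoleic and reference values did not overlap on the brightest probe, beside 0.547% of all gene names. The HFoleic difference was -0.59 ± 0.09 (SE, adjusted p 0.000703 by limma), a 1.50-fold lower signal, and between -0.65 and -0.52 within the 3 slides. In HFepa the difference from the reference was -0.33 (adjusted p 0.108), and that between HFepa and HFoleic was 0.26, with a 95% interval of 0.06 to 0.45 (adjusted p 0.381).

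Of the 5 probes of Slc25a12, 3 were called in HFoleic (-0.59, -0.43 and -0.34) and lie close together at chr2:71112979-71113038, chr2:71113256-71113315 and chr2:71109142-71109201 (mouse build mm9). The other 2, at chr2:71150532-71150591 and chr2:71165603-71165662, gave -0.12 and 0.02. The first of these was well above background in 5 of 8 HFoleic and 3 of 7 HFepa mice and the second in 8 and 4. The order of HFepa and HFoleic differed between probes. The difference between them was 0.26 and 0.16 on the first 2 probes, but -0.0285 on the third, which was called in HFoleic and well above background on all arrays, and -0.18 and -0.19 on the other 2. The liver paralogue Slc25a13 (citrin), which carries out the same exchange, differed from the reference by -0.05 in HFoleic (95% interval -0.19 to 0.09, adjusted p 0.737) and by -0.06 in HFepa (-0.21 to 0.09, adjusted p 0.793), and by -0.09 and -0.10 without reference replicate 5.

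Slc25a22, a carrier that brings glutamate into the matrix with a proton, had a log2 signal of 11.86 to 13.13 in reference mice (median 12.49), 11.34 to 12.07 in HFoleic (median 11.77) and 11.43 to 12.15 in HFepa (median 11.80). Values of 5 of 8 HFoleic and 4 of 7 HFepa mice were below those of every reference mouse. The difference was -0.76 ± 0.13 (SE, adjusted p 0.00179 by limma) in HFoleic and -0.65 ± 0.14 (adjusted p 0.0385) in HFepa, or 1.69-fold and 1.57-fold lower. Within the 3 slides it ran from -0.98 to -0.53 and from -0.71 to -0.61. All 3 of its probes, between chr7:148616089-148616148 and chr7:148617091-148617150 (mm9), were called in HFoleic (-0.76 to -0.53) and 1 of 3 in HFepa, where the others gave -0.46 (adjusted p 0.0607) and -0.44 (0.139). The HFepa call was lost when any of 12 single mice was left out, with adjusted p-values up to 0.0836, and without reference replicate 5 it stood at 0.0530. The direct difference between HFepa and HFoleic was 0.11 (95% interval -0.19 to 0.40).

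Among the other amino acid carriers no gene was called. Slc25a15, the ornithine carrier of the urea cycle, came near the threshold, with differences of -0.44 in HFoleic (adjusted p 0.0567) and -0.47 in HFepa (adjusted p 0.135). Reference replicate 5 had by far its highest signal, 10.40, against 8.81 to 9.57 in the other reference mice. Without that mouse the difference was -0.32 in HFoleic and -0.35 in HFepa. Slc25a2, its close relative, gave 0.47 (adjusted p 0.0812) and 0.51 (adjusted p 0.172), and 5 of 7 HFepa mice exceeded every reference mouse. Here reference replicate 5 was the lowest, at 5.52 against 5.95 to 6.61, and leaving it out gave 0.39 and 0.42. The probe was dim, with group means of 6.22 to 6.73, and was well above background in 8 of 9 reference mice.

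Slc25a25 was the member called with the largest difference in HFepa. It is a calcium-regulated carrier that exchanges ATP-Mg for phosphate and so sets the adenine nucleotide content of the matrix. Log2 signal was 12.71 to 13.90 in reference mice (median 13.45), 12.46 to 13.31 in HFoleic (median 12.96) and 12.32 to 12.91 in HFepa (median 12.55). Values of 5 of 7 HFepa mice but only 2 of 8 HFoleic mice were below those of every reference mouse. The difference was -0.54 ± 0.16 (SE, adjusted p 0.0391 by limma) in HFoleic and -0.83 ± 0.16 (adjusted p 0.0310) in HFepa, or 1.45-fold and 1.77-fold lower. Within the 3 slides it ran from -0.80 to -0.29 in HFoleic and from -1.06 to -0.66 in HFepa. HFepa was lower than HFoleic by a difference of -0.29 (95% interval -0.64 to 0.06, adjusted p 0.618), so the order of these 2 groups is not settled.

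All 4 of its probes were called in HFepa (-0.83 to -0.66). In HFoleic 3 were called (-0.54 to -0.48), and the remaining one gave -0.35 (adjusted p 0.0793). The 3 called in both lie at chr2:32270275-32270334, chr2:32270490-32270549 and chr2:32270611-32270670 (mm9), and the remaining one covers 60 bases spread over 330 at chr2:32272932-32273261, across an exon junction. Its sequence is shown because it reads spliced RNA, and 1 of its 3 forward reading frames is open throughout:
Slc25a25 junction probe: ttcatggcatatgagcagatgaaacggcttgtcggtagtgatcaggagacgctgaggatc

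The calls of Slc25a25 were close to the threshold. With 1 mouse left out, the HFoleic difference stayed between -0.63 and -0.48 and was no longer called in 9 of 24 cases (reference replicates 1 to 5 and HFoleic replicates 1, 5, 7 and 8). The HFepa difference stayed between -0.92 and -0.77 and was no longer called in 8 of 24 (reference replicates 1, 2 and 4 and HFepa replicates 1, 2, 4, 6 and 7). Adjusted p-values reached 0.0891 and 0.0718. By the methods' t-test they were 0.113 and 0.165, and with only the 2 groups compared in the limma fit 0.0757 and 0.101.

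**Figure D2:**
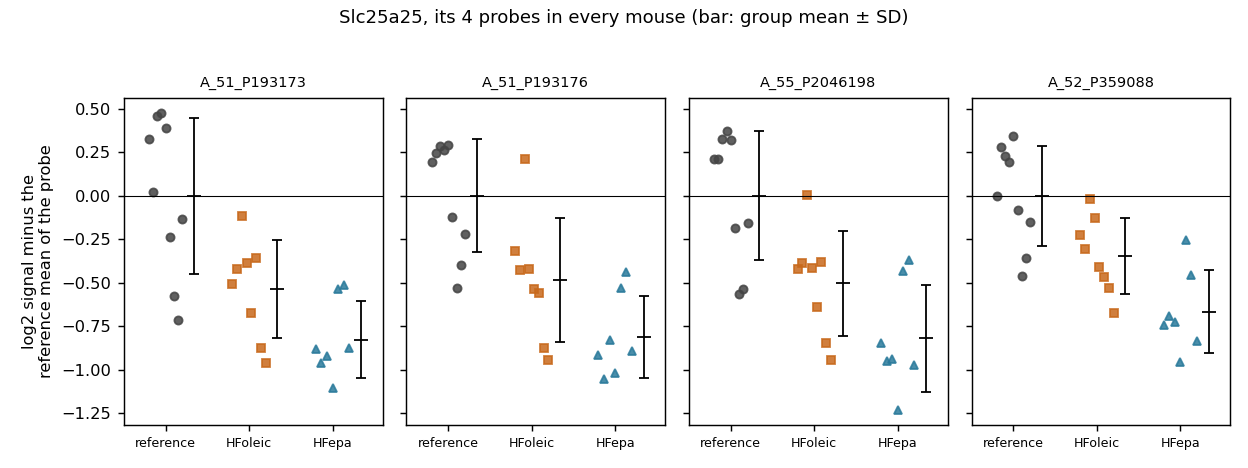
Log2 signal of each mouse for the 4 probes of Slc25a25, minus the reference mean of the probe (y axis), by group, with group mean ± SD at the right of each group. The HFepa mean is the lowest on all 4 probes, -0.83 to -0.66 from the reference, and the HFoleic mean lies between.

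RefSeq lists 3 start sites of Slc25a25, and the promoter window of 1 of them holds TGACGTCA, the palindromic cAMP response element bound by CREB. Windows ran from 250 bases before a start to 50 after it, and both strands were searched. This element was found in 1.79% of all 32851 promoter windows and in 2 of the 45 windows of members. Among the 35 members with a listed promoter it was in Slc25a25 and Slc25a36 only. Both sequences are shown upstream of the start, on the strand of the gene and with the element in capitals, so that the one member that fell can be read beside the one that was not called. The first is chr2:32424067-32424316 and the second chr9:97111169-97111228, both on the minus strand of GRCm38.p6:
Slc25a25: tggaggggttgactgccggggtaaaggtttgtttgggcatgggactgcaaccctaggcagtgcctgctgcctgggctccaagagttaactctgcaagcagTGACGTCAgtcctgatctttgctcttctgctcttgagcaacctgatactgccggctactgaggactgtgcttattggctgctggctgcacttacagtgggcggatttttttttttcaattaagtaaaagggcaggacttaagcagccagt
Slc25a36: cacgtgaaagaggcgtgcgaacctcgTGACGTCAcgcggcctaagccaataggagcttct

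Slc25a36, which carries pyrimidine nucleotides, differed from the reference by -0.15 in HFoleic (adjusted p 0.462) and -0.04 in HFepa (0.921). Without reference replicate 5, which at 7.74 was its highest reference mouse (others 6.86 to 7.67), the differences were -0.08 and 0.03. The shorter motif TGACG, which lies inside the element above, was in 20.8% of all windows. Of the 45 windows of members 12 held it, from 11 of 35 members, among them Slc25a28. CACGTG was in 7.15% of all windows and in 7 of the 45 windows of members, from 6 members. TGATGNAA was in 3.97% of all windows and in no member. These matches are descriptions of the letters in the windows.

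The paralogues of Slc25a25 were not called. Slc25a24 gave -0.37 in HFoleic (adjusted p 0.195), and -0.23 without reference replicate 5, which was at 8.46 with the other reference mice at 6.85 to 7.91. Slc25a23 gave 0.31 in HFoleic (adjusted p 0.155) and 0.17 in HFepa (adjusted p 0.643), and 0.18 and 0.04 without reference replicate 5, whose signal of 8.23 was below the 9.31 to 9.68 of the other reference mice.

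Slc25a47, a carrier found mainly in liver whose substrate is not settled, had a log2 signal of 15.57 to 16.16 in reference mice (median 15.89), 15.00 to 15.82 in HFoleic (median 15.39) and 15.47 to 16.01 in HFepa (median 15.60). All but 1 of the HFoleic mice (7 of 8) lay below every reference mouse, against 3 of 7 HFepa mice. The HFoleic difference was -0.56 ± 0.10 (SE, adjusted p 0.00208 by limma), a 1.48-fold lower signal, and -0.84 to -0.41 within the 3 slides. In HFepa it was -0.25 (adjusted p 0.303), with -0.48 to 0.07 within slides. HFepa and HFoleic differed by 0.32 (95% interval 0.09 to 0.54, adjusted p 0.341), and all 7 HFepa mice were above the HFoleic mean. Its single probe lies at chr12:110094661-110094720 (mm9).

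Slc25a51 brings NAD into mitochondria. Log2 signal was 12.61 to 13.58 in reference mice (median 12.94), 12.13 to 13.00 in HFoleic (median 12.43) and 12.46 to 12.90 in HFepa (median 12.61). The groups overlapped, with 6 of 8 HFoleic and 4 of 7 HFepa mice below every reference mouse. The difference was -0.48 ± 0.12 (SE, adjusted p 0.0157 by limma) in HFoleic and -0.30 (adjusted p 0.294) in HFepa. Within slides the HFoleic difference ran from -0.77 to -0.33, and its second probe was called too (-0.44, adjusted p 0.00225). By the methods' t-test the adjusted p of the brightest probe was 0.0587. The probes lie at chr4:45408957-45409016 and chr4:45420311-45420370 (mm9).

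Slc25a34, which the role list places with the dicarboxylate and oxodicarboxylate carriers on the basis of its relatives, had a log2 signal of 10.23 to 10.73 in reference mice (median 10.50), 9.73 to 10.34 in HFoleic (median 10.10) and 9.55 to 10.65 in HFepa (median 10.06). Of the HFoleic mice, 6 of 8 lay below every reference mouse, and HFepa mice were widely spread (SD 0.39, against 0.15 in the reference). The HFoleic difference was -0.44 ± 0.12 (SE, adjusted p 0.0279 by limma) and -0.61 to -0.22 within slides, and the HFepa difference was -0.39 (adjusted p 0.156). Probes disagreed here. The called probe lies at chr4:141174747-141174806 (mm9) and the other, at chr4:141179390-141179449, gave 0.14 in HFoleic (adjusted p 0.408) and 0.03 in HFepa. This other probe was dim, with group means of 6.13 to 6.27. It was well above background in 7 of 8 HFoleic, 9 of 9 reference and 7 of 7 HFepa mice. The HFoleic call was lost without reference replicate 1 or 7 and without HFoleic replicate 1, 3 or 8 (adjusted p up to 0.0620). It was also lost on scanner signals with no filter on dim probes (0.0544), on processed signals scaled to the 75th percentile (0.0715) and with the replicate number as a block (0.0808).

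**Figure D3:**
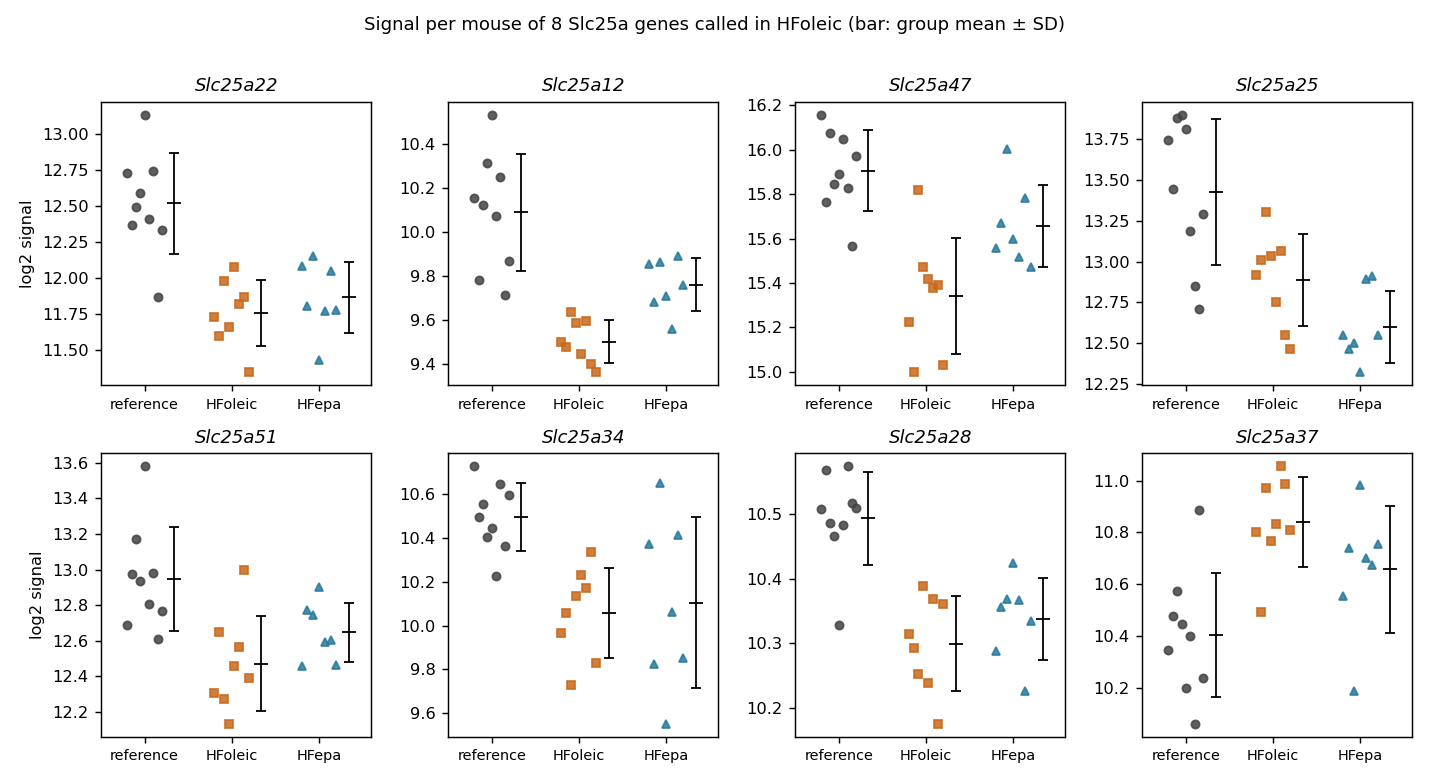
Log2 signal (y axis) of each mouse for 8 Slc25a genes called in HFoleic against the reference, brightest probe, with group mean ± SD at the right of each group. In Slc25a12 no HFoleic mouse reaches the lowest reference mouse (9.64 against 9.71), whereas in the other 7 genes shown the 2 groups overlap.

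The 2 mitoferrins, which carry iron into mitochondria for haem and iron-sulphur clusters, were called in opposite directions in HFoleic. Slc25a28, the form of most tissues, had a log2 signal of 10.33 to 10.57 in reference mice (median 10.51), 10.18 to 10.39 in HFoleic (median 10.30) and 10.23 to 10.42 in HFepa (median 10.36). Only reference replicate 5, at 10.33, lay among the obesogenic groups, and the other reference mice were at 10.47 to 10.57. The difference was small but even: -0.19 ± 0.04 (SE, adjusted p 0.00888 by limma) in HFoleic, or 1.14-fold lower, with -0.20 to -0.18 within slides. The adjusted p was 0.0625 on processed signals scaled to the 75th percentile. In HFepa it was -0.16 (adjusted p 0.125). Its probe lies at chr19:43738444-43738503 (mm9).

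Slc25a37, the mitoferrin of developing red cells, had a log2 signal of 10.06 to 10.89 in reference mice (median 10.40), 10.49 to 11.05 in HFoleic (median 10.82) and 10.19 to 10.98 in HFepa (median 10.70). Of the HFoleic mice 3 of 8 exceeded every reference mouse. The difference was 0.44 ± 0.10 (SE, adjusted p 0.0121 by limma) in HFoleic, or 1.35-fold higher, with 0.30 to 0.51 within slides, and 0.25 (adjusted p 0.312) in HFepa. This probe lies at chr14:69860020-69860079 (mm9). The other 3 probes of that name lie at chr14:69863195-69863254, chr14:69902797-69902856 and chr14:70080666-70080725. They gave 0.17, 0.59 and 0.58 in HFoleic and were not called (adjusted p 0.299 to 0.408 by limma). The probe that gave 0.17 was well above background in 5 of 8 HFoleic and 5 of 9 reference mice. For the probe that gave 0.58 this was 7 of 8 and 4 of 9. Since Slc25a37 is abundant in red cell precursors, erythroid markers are given beside it. Of 4 measured, none was called in HFoleic, and their median difference was -0.22. The globin genes Hba-a1, Hbb-b1 and Hbb-bt gave -0.22, -0.23 and -0.24, and Alas2 went the other way with 0.15. Their summed linear signal was 97856 to 169891 in HFoleic against 114671 to 201636 in the reference. The part of red cell precursors in the Slc25a37 values was not tested.

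Neither of the carriers Slc25a39 and Slc25a40, of which Slc25a39 imports glutathione, was called. Slc25a39 gave -0.10 in HFoleic (95% interval -0.22 to 0.03, adjusted p 0.403) and -0.10 in HFepa (adjusted p 0.520).

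None of the 3 measured adenine nucleotide and phosphate carriers was called. In HFoleic the adenine nucleotide carriers Slc25a4 and Slc25a5 gave -0.33 and -0.0031, and Slc25a4 gave -0.23 without reference replicate 5. Reference replicates 3, 4 and 5 were high for Slc25a4, at 11.06, 11.53 and 11.44. The other reference mice, at 10.14 to 10.50, lay within the HFoleic range of 10.11 to 10.56. The phosphate carrier Slc25a3 gave -0.03 in HFoleic (95% interval -0.13 to 0.07, adjusted p 0.783) and 0.02 in HFepa (-0.09 to 0.12, adjusted p 0.933). Its second probe gave -0.13 in HFoleic (adjusted p 0.183). The oxoglutarate-malate carrier Slc25a11 gave -0.11 (adjusted p 0.371) and -0.18 (adjusted p 0.267). Slc25a42, which imports coenzyme A, gave -0.24 (adjusted p 0.206) and -0.06 (adjusted p 0.892).

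Slc25a20 passes acylcarnitines into the matrix and carnitine back. Its log2 signal was 10.52 to 11.38 in reference mice (median 11.16), 10.74 to 11.02 in HFoleic (median 10.99) and 10.93 to 11.28 in HFepa (median 11.15). The difference was -0.18 in HFoleic (adjusted p 0.249 by limma) and 0.02 in HFepa (adjusted p 0.969). This result rested on 1 mouse. Reference replicate 5 was at 10.52 and the other reference mice at 11.06 to 11.38, and without it the HFoleic difference was -0.26 (adjusted p 0.0184) and the HFepa difference -0.06 (adjusted p 0.797). HFepa exceeded HFoleic by 0.20 (95% interval 0.01 to 0.39, adjusted p 0.530), and 5 of 7 HFepa mice were above every HFoleic mouse.

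Of the largest differences upward that were not called in HFoleic, the uncoupling-protein-like Slc25a30 gave 0.49 (adjusted p 0.233) and Slc25a45, whose substrate is not settled here, 0.35 (adjusted p 0.126). Slc25a30 had 4 probes, all with a higher mean in HFoleic and none called. The largest difference, 0.81, was on a dim probe that was well above background in 5 of 8 HFoleic and 5 of 9 reference mice. Slc25a45 also gave the largest difference between the obesogenic groups: HFepa minus HFoleic was -0.44 (95% interval -0.73 to -0.15, adjusted p 0.300), with 10.13 to 10.93 in HFepa (median 10.45), 10.47 to 11.57 in HFoleic (median 10.95) and 10.16 to 10.93 in the reference (median 10.62). All 7 HFepa mice lay below the HFoleic mean and 4 of 7 below every HFoleic mouse, and the second probe gave -0.44 too. Slc25a21, which carries oxoadipate, gave -0.31 between these groups (adjusted p 0.585), and Slc25a48 gave -0.19 (adjusted p 0.749), or -0.30 to -0.11 with 1 mouse left out, the lowest without HFoleic replicate 3.

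Enzymes and transporters that work with these carriers were read from 7 lists. In HFoleic 12 of their 58 measured genes were called, 3 higher and 9 lower. This was 20.7% (5.17% higher, 15.5% lower), beside 7.38% of all gene names (4.12% higher, 3.26% lower). Slc25a12 and Slc25a13 serve the malate-aspartate shuttle, whose enzymes were listed with those of the glycerol phosphate shuttle. The list of both shuttles had 1 of 6 genes called and a median difference of -0.04. This was Got1, the cytosolic aspartate aminotransferase, at 13.87 to 16.24 in reference mice (median 14.86), 12.64 to 13.89 in HFoleic (median 13.33) and 13.36 to 14.10 in HFepa (median 13.52). Its difference was -1.56 in HFoleic (SE 0.23, adjusted p 0.000471 by limma) and -1.23 in HFepa (SE 0.23, adjusted p 0.0274), on all 3 probes in both. It was the 1 gene of the 7 lists called in HFepa, and this call was lost wherever 0 of all probes were called, as by the methods' t-test, with only the 2 groups in the fit or without reference replicate 2 or HFepa replicate 2 or 6. The authors reported Got1 as differentially expressed in both obesogenic groups against the reference. Mitochondrial Got2 gave -0.03 (adjusted p 0.845) and -0.04 (adjusted p 0.830).

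In the urea cycle list, which depends on ornithine, citrulline and aspartate crossing the membrane, 3 of 7 genes fell in HFoleic (list median -0.38): Asl by 1.10 (adjusted p 0.000756 by limma), Cps1 by 0.89 (adjusted p 0.00182) and Arg1 by 0.66 (adjusted p 0.00375). In HFepa they gave -0.61, -0.47 and -0.41 and were not called (adjusted p 0.112, 0.191 and 0.164). The carnitine shuttle list, served by Slc25a20, had 2 of 6 genes lower in HFoleic (list median -0.43). These were Cpt1a, which makes acylcarnitines at the outer membrane (fell by 0.43, adjusted p 0.00265), and Crat, the acetyl transferase (fell by 0.57, adjusted p 0.00656, on 1 of 2 probes). Crat gave -0.13 in HFepa.

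In the list of the import route of the carriers, 3 of 12 genes fell in HFoleic (list median -0.05): the small Tim chaperone Timm10 by 0.34, and Tomm20 and Tomm40 of the TOM complex by 0.27 and 0.25 (adjusted p 0.0100, 0.0260 and 0.0271 by limma). Of the haem and iron-sulphur list (median 0.11) 1 of 8 rose, Fech (ferrochelatase, 0.24, adjusted p 0.00981). Among 16 measured inner membrane transporters outside the family name (median 0.01) 2 rose, Abcb10 (0.50, adjusted p 0.00664) and the pyruvate carrier subunit Mpc1 (0.33, adjusted p 0.00917, on 2 of 3 probes). None of the 3 outer membrane channels of the Vdac family was called (median -0.06). Between HFepa and HFoleic no gene of the lists was called.

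**Figure D4:**
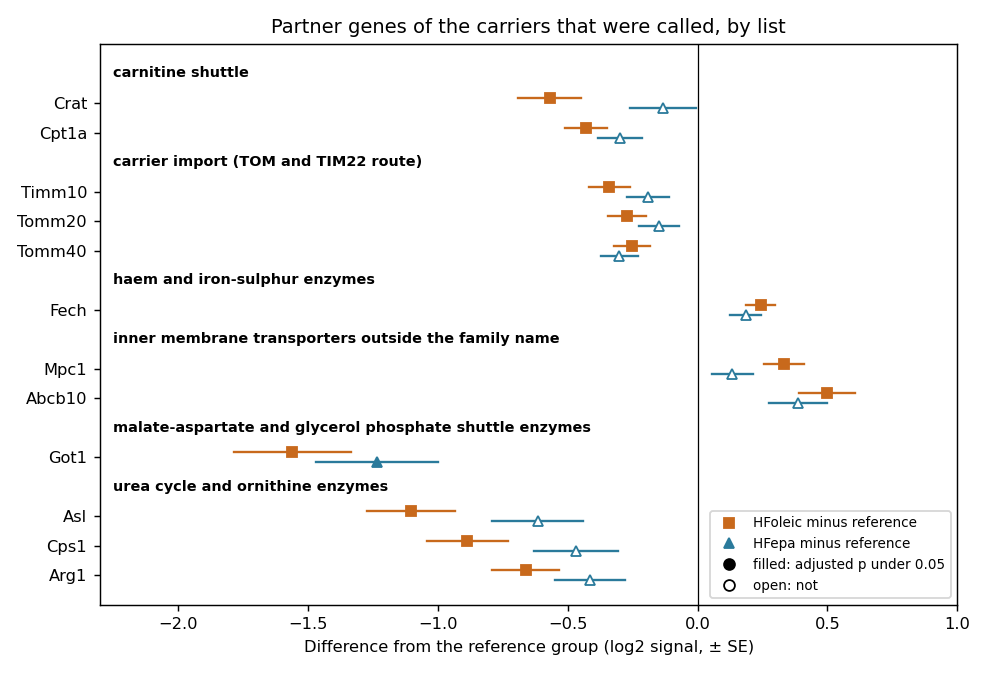
Difference from the reference in log2 signal (x axis, ± SE) for the 12 genes of the partner lists called in HFoleic, for HFoleic (orange squares) and HFepa (blue triangles); filled symbols have an adjusted p under 0.05. Got1 lies farthest to the left, at -1.56 in HFoleic and -1.23 in HFepa.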

How the data were processed

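Liver RNA of 24 mice was labelled with Cy3 and hybridised to 1-colour Agilent arrays, 1 mouse per array, on 3 slides that each held all 3 groups. The authors extracted signals with Agilent Feature Extraction 10.10.1.1 and deposited log2 values of the median signal after a filter and quantile normalization. The criterion of the filter is not given in the sources used here, and a filter on detection marks kept 30003 probes. There were 32176 probes in that deposited matrix and 2550 of its cells were empty, 7 of them in members. The deposited scanner files hold intensities and marks of detection, and gave gene names, mm9 coordinates and the values of several alternatives. The members, roles, partner lists and markers were chosen with earlier results of these data known.

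All 24 arrays entered a limma (3.58.1, R 4.3.3) group-means fit (lmFit, eBayes) with 3 two-sided contrasts and Benjamini-Hochberg adjustment over all probes, which was tested on simulated data. A value missing in 1 array was left out of that probe's fit. The number of arrays limits the precision. Named members are those with a called probe in any comparison, the 5 largest rises and falls in each, and the brightest probe of each role group, plus every called gene of a partner list. Slc25a36, Slc25a24, Got2 and the rest of the adenine nucleotide and glutathione groups fall outside that rule and were chosen after their values were seen. Promoters are from RefSeq (GRCm38.p6), where 35 of 46 members matched. Tables and figures used Python 3.11.15, pandas 2.3.3, numpy 2.4.6, matplotlib 3.10.9 and the R package data.table (1.17.8). Alternatives were 10 processing settings, the other probes of a gene and leaving out each of the 24 arrays. The methods' t-test is the pairwise t-test that the authors named. Counts and medians cover all measured members, of which 1 is not reported here by name.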

Additional observations from a re-analysis of the deposited data

Results flagged for a closer look

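Sets of 7 to 9 mice (a named member in 1 group) were searched for a mouse whose gap to the next was large for the range of the group. Chance gives about 1 in 20 for a single set. The sets share the same mice and were chosen partly on their values, so this rate is no test of their number. Among 66 sets, 7 held such a mouse. Reference replicate 5 accounted for 4 of them: log2 signal was 10.40 for Slc25a15 (other reference mice 8.81 to 9.57), 10.52 for Slc25a20 (11.06 to 11.38), 8.23 for Slc25a23 (9.31 to 9.68) and 10.33 for Slc25a28 (10.47 to 10.57). Slc25a39 was at 14.86 in reference replicate 8 (others 15.11 to 15.35) and at 14.84 in HFoleic replicate 2 (others 15.02 to 15.14). Slc25a11 was at 13.03 in HFoleic replicate 3 (others 13.17 to 13.28).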

How the results depend on the processing

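The 16 called member probes in HFoleic against the reference became 11 to 17 over 10 processing settings and 11 to 18 with 1 mouse left out, while the 2122 of all probes became 1451 to 2224 and 1558 to 2955. The 5 in HFepa became 0 to 7 and 0 to 9, while the 110 of all probes became 0 to 118 and 0 to 467. They were 0 with scanner signals and no filter on dim probes, by the methods' t-test and with only the 2 groups compared in the fit (25, 23 and 24 at an unadjusted p under 0.05), as were the counts over all probes, and the cause was not tested. Between HFepa and HFoleic the count was 0 throughout. Partner genes called in HFoleic were 12, and 14 with refiltered scanner signals. In HFoleic, calls of Slc25a12, Slc25a22 and Slc25a47 were kept under every processing setting and with any mouse left out, while those of Slc25a25, Slc25a51, Slc25a28, Slc25a34 and Slc25a37 were lost in at least 1 setting.

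Other probes of a gene gave the opposite sign in 11 cases. They were Slc25a12 (0.018) and Slc25a34 (0.14) in HFoleic against the reference. In HFepa against the reference they were Slc25a34 (0.0348), Slc25a23 (-0.0647), Slc25a3 (-0.0252) and Slc25a42 (0.0349). Between HFepa and HFoleic they were Slc25a12 (-0.19, -0.0285 and -0.18), Slc25a34 (-0.11) and Slc25a37 (0.0084). With 1 mouse left out, uncalled differences crossed 0 for Slc25a34 between HFepa and HFoleic (-0.0442 to 0.14) and, in HFepa against the reference, for Slc25a20 (-0.0577 to 0.0502) and Slc25a42 (-0.10 to 0.0064).

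Groups share replicate numbers, but mice of 1 number did not deviate together (correlation -0.28 to 0.34, median 0.0028, over 22 pairs) and 3 of 24 correlated best with their own number. With the replicate block, 14 member probes were called in HFoleic, 7 in HFepa and 0 between HFepa and HFoleic, and in HFoleic the calls of Slc25a37 (0.41, adjusted p 0.0502 by limma) and Slc25a34 (-0.42, 0.0808) were lost.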
